A study of Homo sapiens with 3 samples.

Results

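The genes described here are 10 factors that tumour cells use to act on bone and on bone-resorbing osteoclasts: JAG1, EDN1, RUNX2, LOX, PTHLH, IL11, IL6, CSF1, CSF2 and TNFRSF11B. They were taken by gene symbol from a count table of 21726 genes, and each symbol matched 1 row. The counts come from RNA sequencing of PC3-Luc cells, a human prostatic adenocarcinoma line that carries luciferase from a pMSCV-luc vector. PC3 was derived from a bone metastasis and is androgen-independent. The sh718 and sh720 lines carry short hairpins against CTHRC1, a secreted glycoprotein gene, and the control line (shCtrl) carries a control hairpin; all 3 lines share the luciferase vector and 24 h of culture in 6-well plates. Each line gave 3 libraries. Each hairpin is represented by 1 line, and the sources used here do not say whether a line is a clone or a pool, so an effect of the hairpin and a difference between lines cannot be told apart.

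Bone is renewed by osteoblasts, which build it, and osteoclasts, which resorb it. Osteoclasts mature under macrophage colony-stimulating factor (CSF1) and RANK ligand, and osteoprotegerin (TNFRSF11B) is the soluble decoy receptor that binds RANK ligand. Tumour cells in bone are known to secrete parathyroid hormone-related protein (PTHLH), IL-6 and IL-11, which raise RANK ligand on osteoblasts, while endothelin-1 (EDN1) is known for osteoblastic lesions of prostate cancer. JAG1 is a Notch ligand through which tumour cells signal to bone cells, RUNX2 is the master transcription factor of osteoblasts, and LOX encodes lysyl oxidase, which crosslinks collagen.

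Library totals ran from 883663 to 1108960 counts, and levels are given as CPM, counts scaled to a library total of 1000000, so that 1 CPM was about 1 count in a library. CTHRC1 had 2, 2 and 1 counts in the sh718 libraries, 18, 19 and 10 in the sh720 libraries and 88, 117 and 126 in the control libraries. The epithelial keratin genes KRT8 and KRT18 were abundant in every line, with mean levels of 196 and 699 CPM in sh718, 276 and 740 CPM in sh720 and 202 and 634 CPM in control. The other epithelial markers looked at were lower. EPCAM was at 14.4 CPM in sh718, 40.4 CPM in sh720 and 37.8 CPM in control. CDH1 was near absent, with 1, 8 and 6 counts over the sh718, sh720 and control libraries. Osteoclast and macrophage markers summed to 3 to 7 counts in a library of sh718, 3 to 5 in sh720 and 1 to 6 in control, with 7 of 12 markers having any count and no row for ACP5 or CALCR. Fibroblast and osteoblast markers summed to 23 to 24, 17 to 34 and 25 to 38 counts in a library of sh718, sh720 and control, and COL1A2, BGLAP, IBSP and SP7 had no row. TNC, the 1 such marker tested, was not called in any comparison. A lower level can mean fewer cells with the transcript or less of it per cell, which bulk RNA cannot tell apart.

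Only JAG1 and PTHLH reached the count minimum for the test, a sum per line that averaged at least 20 over the 3 lines. The other 8 had between 3 counts (CSF2) and 35 counts (IL11) over all 9 libraries and are given as counts. In the test, edgeR's quasi-likelihood fit of all 9 libraries with Benjamini-Hochberg adjustment over 9556 genes, calls were made where the adjusted p was under 0.05. By that rule JAG1 was called in sh720 against control and in sh718 against sh720, and PTHLH in no comparison. Neither was called in sh718 against control (unadjusted edgeR p 0.053 for JAG1 and 0.637 for PTHLH), nor by DESeq2. The background was 20.4% of all tested genes called in sh718 against control, 6.85% in sh720 against control and 25.3% in sh718 against sh720. By direction, 9.56% were higher and 10.8% lower in sh718 against control, 3.43% higher and 3.42% lower in sh720 against control, and 12.3% higher and 13% lower in sh718 against sh720. With 2 members tested, a share of members cannot be read against these. Both comparisons with control use the same 3 control libraries and are not independent of each other.

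**Figure D1:**
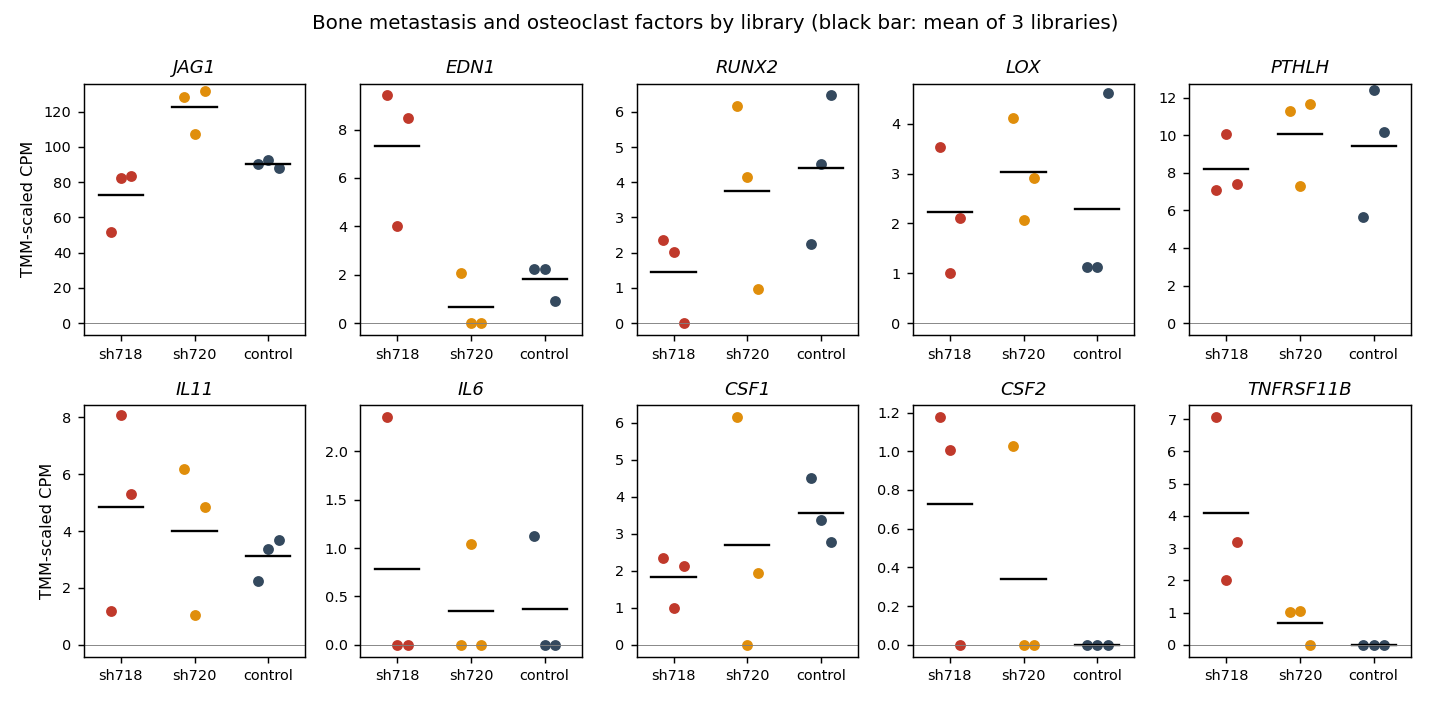
Each panel shows 1 of the 10 genes, with TMM-scaled CPM on the vertical axis and the sh718, sh720 and control lines on the horizontal axis; points are libraries and the black bar is their mean (n = 3 libraries). JAG1 is separated between all 3 lines and EDN1 is highest in the 3 sh718 libraries, while most other panels rest on a few counts.

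JAG1 (ENSG00000101384, GRCh38 chromosome 20, 10637684 to 10673999, minus strand) held 826 of the counts and was lower in sh718 than in sh720. Its level was 51.9, 82.6 and 83.7 CPM in the sh718 libraries, 128, 107 and 132 CPM in the sh720 libraries and 90.1, 92.5 and 87.9 CPM in the control libraries. All sh718 libraries lay below all control libraries and all sh720 libraries above them, so no pair of lines overlapped, which was the case for 33.5% of tested genes in sh718 against control, 23.5% in sh720 against control and 37% in sh718 against sh720. The means were 72.7 ± 18.1 CPM in sh718, 122 ± 13.4 CPM in sh720 and 90.2 ± 2.29 CPM in control (SD, n = 3 libraries each).

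JAG1 in sh718 against sh720 had a log2 change of -0.74 (SE 0.14, 95% interval -1.02 to -0.46, edgeR adjusted p 2.71e-05). It remained called without any 1 library, with a log2 change of -0.84 to -0.56, and DESeq2 called it as well (adjusted p 0.00117). Against control, JAG1 rose in sh720 by a log2 of 0.45 (SE 0.13, interval 0.18 to 0.71, edgeR adjusted p 0.0255). That call was lost with DESeq2 (adjusted p 0.236) and on leaving out sh720 library 1, sh720 library 3 or any control library (edgeR adjusted p 0.0597 to 0.153). In sh718 against control the log2 change was -0.29 (SE 0.15, interval -0.59 to 0.0039, edgeR adjusted p 0.164) and was not called. The lowest library, sh718 library 1, weighed on it: without that library the log2 change was -0.12.

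The 250 bases before the JAG1 and EDN1 starts are shown because these genes carry the differences described here; they are RefSeq promoter sequences of GRCh38.p14. Both strands were searched for 4 motifs. AP-1 was written as TGANTCA. The motif of GATA factors was written as AGATAA. RBPJ, the DNA-binding partner of Notch, was written as TGGGAA. The NF-kB motif was searched as 1 run of letters with 1 open position, which is narrower than its usual consensus. Other forms of the NF-kB motif were not searched. The end of this run can overlap an RBPJ match on the other strand. Capitals mark a match. The JAG1 window is chr20:10674000-10674249 on the minus strand and the EDN1 window chr6:12290111-12290360 on the plus strand.
JAG1: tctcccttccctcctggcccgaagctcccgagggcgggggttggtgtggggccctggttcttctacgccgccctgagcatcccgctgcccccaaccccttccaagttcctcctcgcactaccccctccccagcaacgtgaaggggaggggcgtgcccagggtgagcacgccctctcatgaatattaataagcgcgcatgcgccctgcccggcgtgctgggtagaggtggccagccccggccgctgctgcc
EDN1: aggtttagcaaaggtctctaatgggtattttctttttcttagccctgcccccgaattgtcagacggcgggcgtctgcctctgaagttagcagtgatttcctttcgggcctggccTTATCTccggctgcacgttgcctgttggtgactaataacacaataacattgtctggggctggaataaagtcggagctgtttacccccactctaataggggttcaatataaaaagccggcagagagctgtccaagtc
The JAG1 window held none of the 4 motifs in the forms searched. The EDN1 window held 1 GATA match that begins 136 bases before the start, on the reverse strand. Among 35116 promoter windows of the same length, 6.57% held the AP-1 letters, 9.17% the GATA letters, 20.8% the RBPJ letters and 0.527% the NF-kB letters. Of 8 members whose windows were searched, 2 held AP-1 letters (IL11 and RUNX2), 1 GATA letters (EDN1), 2 RBPJ letters (IL6 and CSF2) and 1 the NF-kB letters (IL6, where they overlap the RBPJ match). No window of CSF1 or TNFRSF11B was searched. A match is only a run of letters and was not tested for binding.

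Other genes of the Notch pathway were taken from a list of 25, of which 22 had a row and 14 were tested. This list and the later ones were chosen with earlier results of these data known. Their counts of calls therefore cannot be read against the shares of all tested genes given above. In sh718 against control 1 rose and 3 fell (median log2 -0.09, against 0.00237 for all tested genes). In sh720 against control edgeR called none (median 0.03, against 0.00151), with 2 at an unadjusted p under 0.05 and 0 called by DESeq2, while in sh718 against sh720 1 was higher and 2 were lower (median -0.22, against -0.00211). The Notch effector HES4 was lower in sh718, at 24.5 ± 1.33 CPM, against 80.2 ± 6.27 CPM in sh720 and 66.7 ± 2.56 CPM in control (SD, n = 3 libraries). Its log2 change was -1.45 against control (edgeR adjusted p 5.88e-09) and -1.71 against sh720 (adjusted p 4.7e-12). HES1 moved likewise by -0.52 and -0.69 (edgeR adjusted p 0.0129 and 3.67e-04), the change against control being lost with DESeq2 (adjusted p 0.107) and without sh718 library 3 or control library 3 (edgeR adjusted p 0.0643 and 0.115). HEY1, another effector, was higher in sh718 by 0.91 against control and by 1.08 against sh720 (edgeR adjusted p 1.94e-08 and 1.24e-10). NCSTN, a gamma-secretase subunit, fell by 0.79 on the log2 scale in sh718 against control (edgeR adjusted p 0.00995), a call lost with DESeq2 (0.0822) and without control library 1 (0.115). In sh720 against control NCSTN lay at -0.57 and was not called (edgeR adjusted p 0.122). It was called there without sh720 library 2 or control library 3 (edgeR adjusted p 0.0404 and 0.0402). DESeq2 called 2 of the 4 in sh718 against control and all 3 in sh718 against sh720. RBPJ, the transcription factor itself, lay at 0.10 and 0.21 in sh718 and sh720 against control and was not called. Thus JAG1, HES1 and HES4 were lower and HEY1 higher in sh718 than in sh720.

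**Figure D2:**
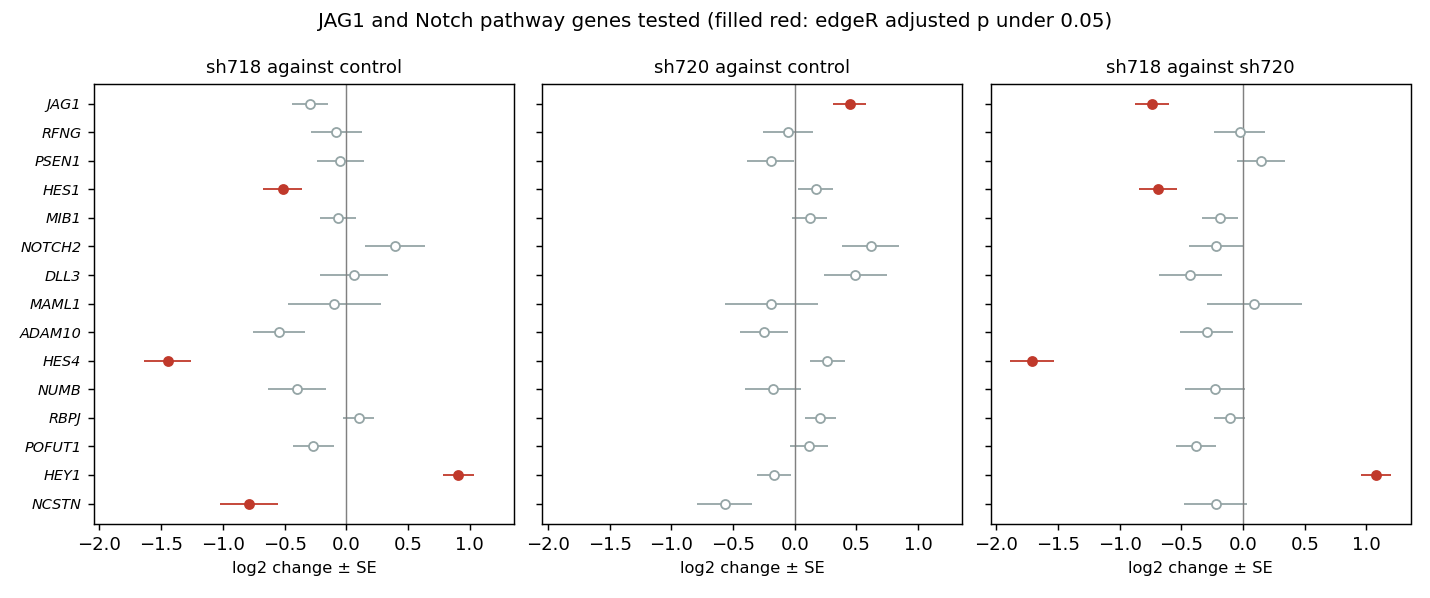
JAG1 (top row) and the 14 tested Notch pathway genes are plotted by their log2 change ± SE on the horizontal axis, in 1 panel per comparison; filled red points have an edgeR adjusted p under 0.05. In sh718 against sh720 JAG1 (-0.74), HES1 (-0.69) and HES4 (-1.71) lie to the left and HEY1 (1.08) to the right.

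EDN1 (ENSG00000078401, GRCh38 chromosome 6, 12290363 to 12297194, plus strand) had more counts in sh718 than in either other line. It had 8, 4 and 8 counts in the sh718 libraries, 2, 0 and 0 in the sh720 libraries and 2, 2 and 1 in the control libraries. Every sh718 library lay above every library of the other lines, and the sh720 and control libraries overlapped. The ratio of scaled summed counts was 4.1 in sh718 over control (20 and 5 counts, exact 95% interval 1.49 to 14) and 10.7 in sh718 over sh720 (20 and 2 counts, 2.59 to 94.0). In sh720 over control it was 0.385 (2 and 5 counts, 0.0367 to 2.35). These and all later count intervals cover counting error only.

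EDN1 lay under the count minimum, so its test exists only in a fit of all 21726 listed genes with no minimum. In that fit edgeR called it in sh718 against sh720 (log2 3.19, SE 0.80, adjusted p 0.00147) and the call held without any 1 library (adjusted p 4.5e-04 to 0.0234). Its size did not: sh720 library 1 held both sh720 counts, so without it sh720 is at 0 and the fold has no fitted size, while leaving out any other library gave a log2 of 2.65 to 3.49. It was also called in sh718 against control (log2 1.96, SE 0.67, adjusted p 0.0452), which was lost without sh718 library 1 or 3 or any control library (0.0722 to 0.234). DESeq2 called neither (adjusted p 0.131 and 0.506). The 27 counts behind these values set how firmly they can be read. Of the genes under the minimum, only EDN1 and TNFRSF11B were given DESeq2 fits and fits that leave out a library. Both were picked for this after their counts were seen, so these fits were not planned tests.

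The enzyme gene ECE1, whose product cleaves big endothelin to the active peptide, was also higher in sh718. Its level was 132 ± 14.1 CPM in sh718, 57 ± 6.72 CPM in sh720 and 55.4 ± 2.86 CPM in control (SD, n = 3 libraries). The log2 change was 1.26 against control (SE 0.14, edgeR adjusted p 3.69e-11) and 1.22 against sh720 (SE 0.14, adjusted p 4.51e-11). The receptor gene EDNRA had 0, 1 and 1 counts over the sh718, sh720 and control libraries, and EDNRB had no row. EDN1 is strongly expressed by endothelial cells, so their markers are given: PECAM1 was higher in sh718, at 46.6 to 51.4 CPM, against 13.4 to 31.2 CPM in sh720 and 21.4 to 25.9 CPM in control (log2 1.03 against control, edgeR adjusted p 2.63e-04). The defining endothelial genes VWF and CDH5, the other 2 of the 3 markers, had no row in a table whose rows all have a count. The part of PECAM1-bearing cells in the EDN1 counts was not tested.

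RUNX2 and LOX, which belong to the osteoblast and matrix side, had few counts and did not stand apart between lines. RUNX2 (chromosome 6, 45328157 to 45664349, plus strand) had 2, 2 and 0 counts in the sh718 libraries, 6, 4 and 1 in the sh720 libraries and 2, 4 and 7 in the control libraries. The libraries overlapped in every comparison. The ratio in sh718 over control was 0.316 (4 and 13 counts, 0.075 to 1.02), in sh720 over control 0.815 (11 and 13 counts, 0.33 to 1.97) and in sh718 over sh720 0.387 (4 and 11 counts, 0.09 to 1.31), so all intervals reach past 1. The gene span of RUNX2 overlaps that of SUPT3H on the opposite strand (83 counts). Without a stated strand setting, reads from any exon stretch that the pair shares cannot be told apart. Whether exons overlap was not looked at.

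LOX (chromosome 5, 122063195 to 122078360, minus strand) had 3, 1 and 2 counts in the sh718 libraries, 4, 2 and 3 in the sh720 libraries and 1, 1 and 5 in the control libraries. Its ratio was 0.879 in sh718 over control (0.244 to 3.05), 1.24 in sh720 over control (0.41 to 3.91) and 0.71 in sh718 over sh720 (0.208 to 2.23). Its libraries overlapped throughout, and a change within these intervals was not detectable at this depth. The gene span of LOX overlaps that of SRFBP1 on the opposite strand (248 counts), with the same limit.

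Relatives of LOX and collagen-modifying enzymes were better measured. Of 14 listed genes 13 had a row and 9 were tested. In sh718 against control 2 rose and 1 fell (median log2 0.32), in sh720 against control none rose and 1 fell (-0.04), and in sh718 against sh720 4 were higher and 1 lower (0.34). DESeq2 called 1, 0 and 1 of them in these comparisons. The prolyl hydroxylase gene P4HA2 and the lysyl hydroxylase gene PLOD1 rose by 0.93 and 0.38 in sh718 against control (edgeR adjusted p 0.00752 and 0.0204), which DESeq2 did not call (0.0633 and 0.121). P4HA2 lost its call without control library 2, and PLOD1 without sh718 library 2 or control library 1 or 2. P4HA1 fell by 0.33 on the log2 scale in sh720 against control (edgeR adjusted p 0.0333) and was not called by DESeq2 (0.189), with no count minimum (edgeR 0.0529), or without sh720 library 2, sh720 library 3 or any control library (edgeR 0.0613 to 0.152). SERPINH1, the collagen chaperone HSP47, fell in sh718 to 38.7 ± 8.04 CPM, against 74.2 ± 9.24 CPM in sh720 and 77.3 ± 12.0 CPM in control (SD, n = 3 libraries). Its log2 change was -0.97 against control and -0.92 against sh720 (edgeR adjusted p 1.3e-05 and 2.38e-05). The lysyl oxidase relatives LOXL1 and LOXL2 were higher in sh718 than in sh720 by 0.55 and 0.69 (edgeR adjusted p 0.0071 and 0.0231), calls that DESeq2 did not make (0.0711 and 0.132). LOXL1 also lost its call without sh718 library 2, and LOXL2 without sh718 library 3 or sh720 library 3 (edgeR adjusted p 0.0977, 0.132 and 0.151).

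PTHLH (ENSG00000087494, GRCh38 chromosome 12, 27958084 to 27972705, minus strand) did not differ beyond the spread between libraries. Its level was 7.07, 10.1 and 7.42 CPM in the sh718 libraries, 11.3, 7.28 and 11.6 CPM in the sh720 libraries and 5.63, 12.4 and 10.2 CPM in the control libraries. The lines overlapped in all comparisons, and the control libraries alone spanned the whole range. The log2 change was -0.19 in sh718 against control (interval -1.0 to 0.62, edgeR adjusted p 0.796), 0.10 in sh720 against control (-0.67 to 0.86, 0.927) and -0.29 in sh718 against sh720 (-1.08 to 0.50, 0.655). The sign against control turned without control library 2 in sh718, and without sh720 library 3 or control library 1 in sh720, so PTHLH had no settled direction.

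Of the genes listed around the PTHLH and endothelin axes, 7 of 16 were tested. In sh718 against control 2 rose and 1 fell (median log2 0.26), in sh720 against control edgeR called none (0.20; 1 at an unadjusted p under 0.05 and 0 by DESeq2), and in sh718 against sh720 1 was higher and 2 were lower (0.03). Besides ECE1, SMAD3, a mediator of TGF-beta signals known to raise PTHLH in breast cancer cells, rose by 0.57 in sh718 against control (edgeR adjusted p 0.00156). GNAS, the stimulatory G protein alpha subunit through which the PTHrP receptor acts, was lower in sh718, at 1700 ± 34.5 CPM, against 2153 ± 114 CPM in sh720 and 2081 ± 56.7 CPM in control (SD, n = 3 libraries; log2 -0.29 against control, edgeR adjusted p 1.09e-04). GLI3 was lower in sh718 than in sh720 by a log2 of -0.38 (edgeR adjusted p 0.0417), a call lost with DESeq2 (0.209), with no count minimum (0.0976) and without sh718 library 1 or 2 or any sh720 library (0.0642 to 0.228). The receptor gene PTH1R had no row.

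IL11 and IL6, cytokines that act through the shared receptor gp130, were low in all lines. IL11 (chromosome 19, 55364389 to 55370463, minus strand) had 1, 8 and 5 counts in the sh718 libraries, 6, 1 and 5 in the sh720 libraries and 2, 3 and 4 in the control libraries. Its ratio was 1.6 in sh718 over control (0.643 to 4.18) and 1.28 in sh720 over control (0.496 to 3.45). In sh718 over sh720 it was 1.24 (0.534 to 2.94). Libraries of sh718 and of sh720 lay both below and above all control libraries, and the lines overlapped throughout. IL6 (chromosome 7, 22725884 to 22732002, plus strand) had 2, 0 and 0 counts in the sh718 libraries, 0, 1 and 0 in the sh720 libraries and 1, 0 and 0 in the control libraries. These sums do not exceed the floor of 3 counts per line used here, and IL6 is therefore given no fold.

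CSF1 and CSF2, growth factors of the macrophage lineage that gives rise to osteoclasts, were also near the limit of the depth. CSF1 (chromosome 1, 109910242 to 109930992, plus strand) had 2, 1 and 2 counts in the sh718 libraries, 6, 0 and 2 in the sh720 libraries and 4, 3 and 3 in the control libraries. Scaled to CPM, all sh718 libraries lay below all control libraries, but the ratio of 0.513 had an interval of 0.138 to 1.65 (5 and 10 counts). The sh720 libraries lay on both sides of the others, with a ratio over control of 0.77 (0.264 to 2.17), and sh718 over sh720 gave 0.666 (0.171 to 2.31). CSF2 (chromosome 5, 132073790 to 132076170, plus strand) had 1, 1 and 0 counts in the sh718 libraries, 1, 0 and 0 in the sh720 libraries and none in the control libraries. With 3 counts in all 9 libraries, it stayed under the floor of 3 counts in each line and gets no fold.

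TNFRSF11B (ENSG00000164761, GRCh38 chromosome 8, 118923557 to 118952200, minus strand), the osteoprotegerin gene, had 11 of its 13 counts in sh718. It had 6, 2 and 3 counts in the sh718 libraries, 1, 1 and 0 in the sh720 libraries and 0, 0 and 0 in the control libraries. Every sh718 library lay above every library of the other lines. Against a floor of 3 counts over the control line its scaled sum in sh718 was 3.76-fold higher. That value takes the 11 sh718 counts as exact, though their 95% counting interval was 5.49 to 19.7. It is therefore not a lower limit of the kind given by the other intervals. The floor of 3 counts equals 1.05 CPM in control, and the 0 control counts have a 95% counting interval of 0 to 3.69 counts. Over sh720 its ratio was 5.86 (11 and 2 counts, 1.28 to 54.4). In the fit with no count minimum edgeR called it in sh718 against control (adjusted p 0.0109) but not in sh718 against sh720 (0.127), and DESeq2 called neither (0.156 and 0.64). The call against control was lost without sh718 library 1, which held 6 of the 11 counts, and without control library 3 (edgeR adjusted p 0.156 and 0.0616). As for EDN1, the DESeq2 fits and those leaving out a library were added after the counts were seen.

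Of the 8 genes under the count minimum, 3 had libraries that did not overlap in sh718 against control, TNFRSF11B and EDN1 higher and CSF1 lower. This compares with 6.91% of the 12170 listed genes under the minimum. In sh718 against sh720 it was 2 of 8, TNFRSF11B and EDN1, against 8.23%. In sh720 against control it was 0 of 8, against 5.38%. With 3 libraries against 3, an exact permutation test cannot go below p = 0.1, so no single gene can pass by this measure alone, and 8 genes are too few to read the share as particular to them.

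**Figure D3:**
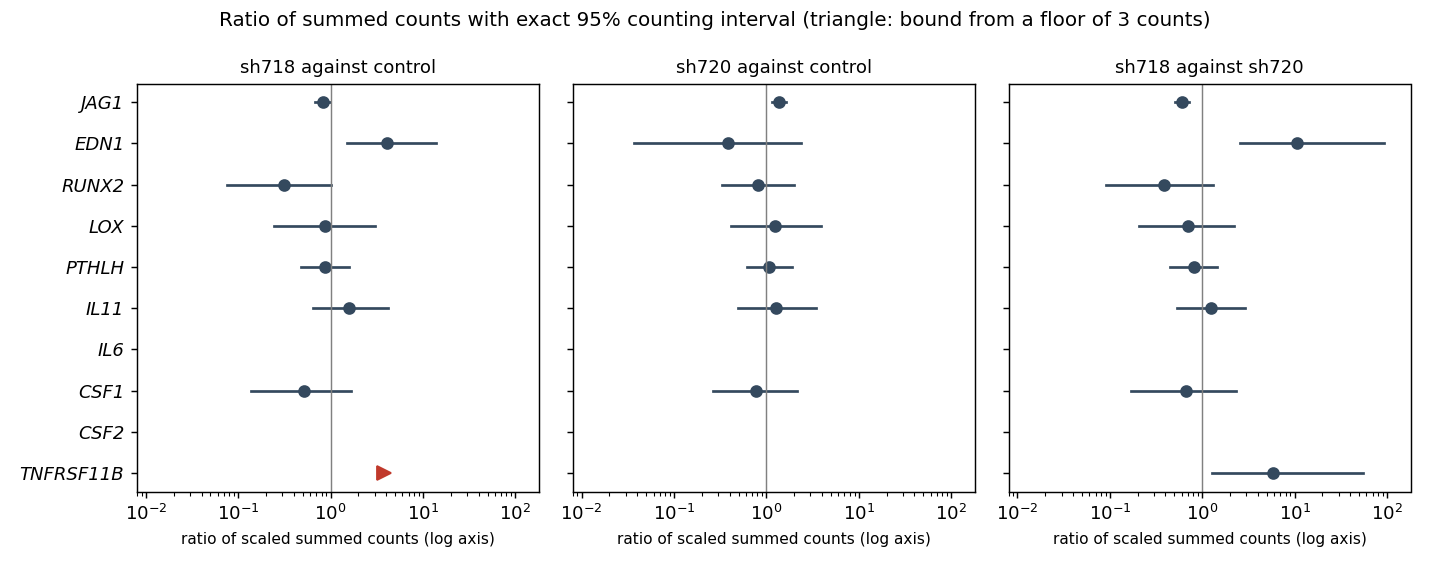
Ratios of scaled summed counts (log axis) with exact 95% counting intervals are drawn for the 10 genes, in 1 panel per comparison. The triangle for TNFRSF11B is the value of 3.76 against a floor of 3 counts, which leaves out counting error in sh718. A row without a mark has at most 3 counts in each line and no ratio. Of the genes under the count minimum, EDN1 (4.1 in sh718 over control, 10.7 over sh720) has intervals that exclude 1. So does TNFRSF11B in sh718 over sh720.

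The receptors and partners of these ligands gave few calls. Of 23 listed genes of the RANK, colony-stimulating factor and IL-6 families, 16 had a row and 10 were tested. EdgeR called none in sh718 or sh720 against control (median log2 -0.14 and 0.08), with 1 and 0 at an unadjusted p under 0.05 and 0 called by DESeq2 in both. IL6ST, which encodes gp130, lay at -0.09 and 0.32, and JAK1, a kinase bound to it, at 0.04 and -0.12. By edgeR 1 was called in sh718 against sh720 (median -0.35), IL6R, which was higher by 0.96 (adjusted p 0.0396). That call was lost with DESeq2 (0.199), with no count minimum (0.0632) and without any 1 library of these lines other than sh718 library 1. TNFRSF11A, which encodes RANK, was at 23.4 ± 6.86 CPM in sh718, 20.9 ± 6.5 CPM in sh720 and 18.4 ± 2.85 CPM in control (SD, n = 3 libraries), with overlapping libraries. The ligand gene TNFSF11 had no row and is not analysed here. STAT3, the main transcription factor downstream of gp130, also had no row; PC3 cells are known to lack that gene.

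Among RUNX relatives and osteoblast genes, 7 of 21 were tested. In sh718 against control 2 rose (NOG 1.47 and SPARC 1.70) and 1 fell (DKK1 -1.08, edgeR adjusted p 1.05e-20, 1.91e-04 and 3.16e-22), with a median log2 of -0.15. NOG and DKK1 encode secreted inhibitors of BMP and Wnt signals, and SPARC a matrix protein. In sh720 against control 1 was called, DKK1 at 0.22 (edgeR adjusted p 0.0175), which DESeq2 did not call (0.127) and which did not survive leaving out sh720 library 1, sh720 library 2, control library 1 or control library 3 (edgeR adjusted p 0.0647 to 0.179). In sh718 against sh720 3 were called, NOG and SPARC higher and DKK1 lower (median 0.13). RUNX1 lay at -0.07 and -0.06 against control and was not called.

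Several other bone metastasis and osteolysis genes differed between the hairpin lines. Of 33 listed symbols 27 had a row and 17 were tested: 5 rose and 5 fell in sh718 against control (median log2 -0.10), 3 and 3 in sh720 against control (0.01), and 7 were higher and 7 lower in sh718 against sh720 (-0.10). Of all tested genes 20.4%, 6.85% and 25.3% were called in these comparisons. The list was chosen with earlier results of these data known, so its share cannot be read against that background. The collagenase genes MMP1 and MMP13 and the cytokine gene IL1B were called in opposite directions in the hairpin lines, against the same control libraries. MMP13 was at 3.73 ± 2.89 CPM in sh718, 40.3 ± 7.95 CPM in sh720 and 12.7 ± 2.88 CPM in control (SD, n = 3 libraries), with log2 changes against control of -1.77 in sh718 and 1.66 in sh720 (edgeR adjusted p 0.00397 and 4.35e-06). Without sh718 library 1 the MMP13 change in sh718 was -2.54. MMP1 changed by -1.56 in sh718 and 1.56 in sh720, the fall in sh718 being lost without control library 1 (edgeR adjusted p 0.098). IL1B was at 50.1 ± 2.71 CPM in sh718, 4.01 ± 1.89 CPM in sh720 and 15.8 ± 6.27 CPM in control, a log2 change of 1.70 in sh718 and -1.90 in sh720. IGFBP3 rose in sh718 to 29.4 ± 8.19 CPM, against 2.74 ± 2.2 CPM in sh720 and 2.8 ± 1.69 CPM in control. SEMA7A rose (log2 1.62) and PDGFB, CD44 and FST fell (-1.57, -0.47 and -0.48) in sh718 against control. CXCL8, the interleukin-8 gene, rose (0.83) and PLAU, the urokinase gene, fell (-0.97) in sh720 against control. CCN2 fell in sh720 against control (-0.72, edgeR adjusted p 0.0112), a call lost with DESeq2 (0.137) and without sh720 library 3 or control library 1.

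**Figure D4:**
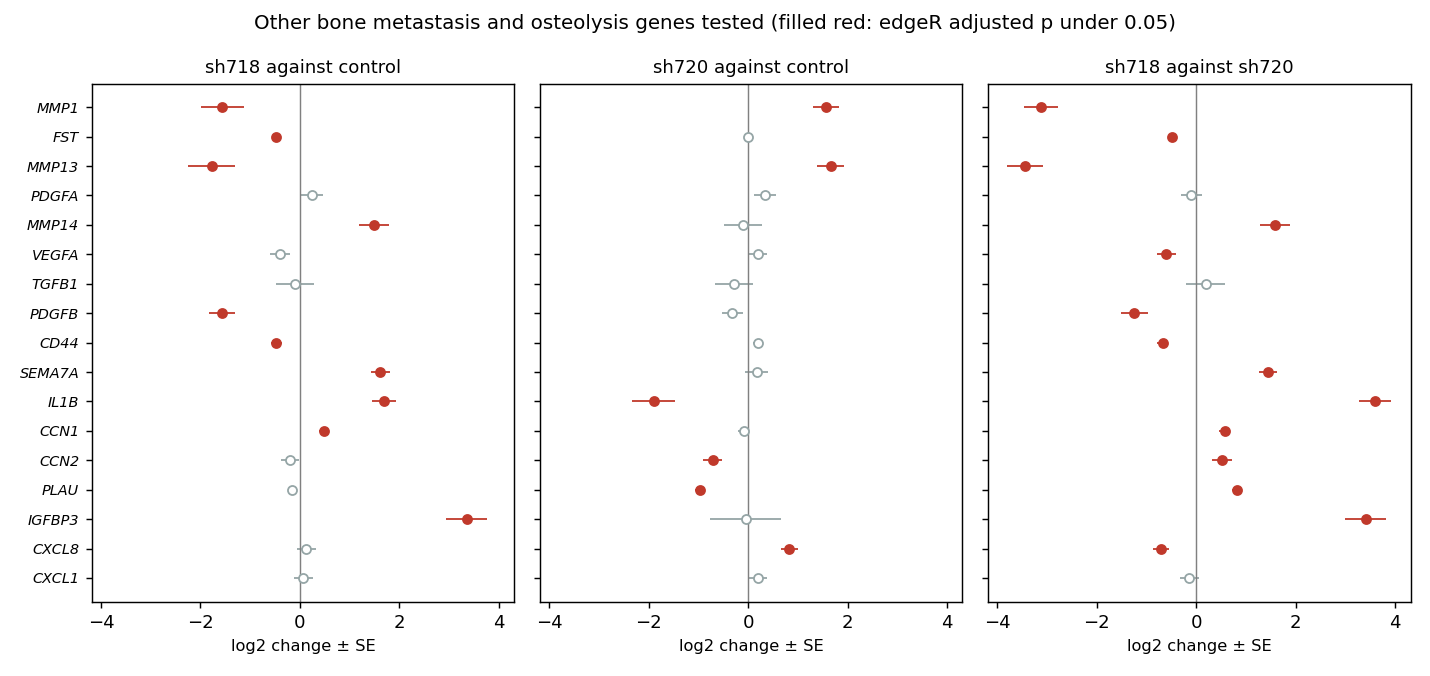
The 17 tested genes of the bone metastasis and osteolysis list are plotted by log2 change ± SE on the horizontal axis, in 1 panel per comparison; filled red points have an edgeR adjusted p under 0.05. MMP1, MMP13 and IL1B lie on opposite sides of 0 in sh718 and sh720 against control, with IL1B at 1.70 and -1.90.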

How the data were processed

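Single reads of 75 bp came from a NovaSeq6000, per the labels' protocols. The authors deposited raw counts per gene for 9 libraries in 3 lines. Trim Galore and the build GRCh38 were used, per the submitters' processing notes. Not given in the sources used here are the aligner, counter, strand setting and annotation. Each line is 1 GEO sample with 3 numbered count columns. Whether these are separate cultures is not stated, so p-values measure the spread between libraries, which may be technical.

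EdgeR 4.0.16 (R 4.3.3; quasi-likelihood test after TMM scaling, 1 model of the 3 lines) was run on 9556 genes, with DESeq2 1.42.0 as an alternative. The script was tested on simulated data with the same spread for every gene. It recovered 26% to 36% of simulated log2 changes of 0.5 and 67% to 75% of those of 1. A change that was not called may therefore still be present. Changes are log2 values; ratios of summed counts are scaled by effective library size, with exact binomial intervals. Positions came from GENCODE release 29, which holds 21258 of 21726 identifiers, and promoters from RefSeq. Genes and lists were chosen with earlier results of these data known. Of each list, at most 3 called genes per direction and comparison were named, by adjusted p, or the 2 with most counts where none was called. Same-numbered libraries did not pair (correlations of deviations -0.0116 to 0.0235).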

Additional observations from a re-analysis of the deposited data

Results flagged for a closer look

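The direct test of sh718 against sh720 asks whether the hairpin lines differ. It was passed by JAG1 and by 29 of the 65 listed genes tested (44.6%, edgeR adjusted p under 0.05). The share of all tested genes was 25.3%. The lists were chosen with earlier results of these data known, so their share cannot be read against that background. Of the 29 genes, the 25 that the naming rule picked are given here. JAG1 had a log2 difference of -0.74. In the PTHLH and endothelin axes the differences were 1.22 for ECE1, -0.34 for GNAS and -0.38 for GLI3, and IL6R had 0.96. In the Notch pathway they were 1.08 for HEY1, -1.71 for HES4 and -0.69 for HES1. Among osteoblast genes NOG had 1.76, SPARC 1.61 and DKK1 -1.29. Among collagen-modifying genes PLOD1 had 0.34, SERPINH1 -0.92, LOXL1 0.55 and LOXL2 0.69. The PLOD1 call was lost with DESeq2 (adjusted p 0.154) and without sh718 library 2, sh720 library 1 or sh720 library 3 (edgeR adjusted p 0.384, 0.257 and 0.0786), with a log2 of 0.17 without sh718 library 2. In the osteolysis list SEMA7A had 1.45, IGFBP3 3.40, IL1B 3.59, PLAU 0.81 and CCN2 0.52, while FST had -0.48, PDGFB -1.25, CD44 -0.67, MMP13 -3.44, MMP1 -3.12 and CXCL8 -0.70. The CCN2 call was lost with DESeq2 (adjusted p 0.202) and by edgeR with no count minimum (0.0749), with only the 2 lines compared (0.0521), and without sh718 library 2, sh718 library 3 or any sh720 library (0.055 to 0.298). Leaving out 1 library moved the size of 2 others: MMP13 was at -4.20 without sh718 library 1, and IGFBP3 at 4.19 without sh720 library 2.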

How the results depend on the processing

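DESeq2 called fewer genes than edgeR: 1007 instead of 1947 in sh718 against control, 295 instead of 655 in sh720 against control and 1293 instead of 2419 in sh718 against sh720. With DESeq2, JAG1 in sh720 against control kept its direction (log2 0.44) but was not called, which left 0 members called. With no count minimum 2 members were called in sh718 against control (EDN1 and TNFRSF11B) and 2 in sh718 against sh720 (EDN1 and JAG1). In that fit 1749 and 2234 of all 21726 genes were called in these comparisons. Leaving out each library in turn gave 0 to 1 member called in sh720 against control, with JAG1 at a log2 of 0.39 to 0.53. The sign of uncalled changes turned in such fits for PTHLH (-0.44 to 0.024 in sh718 and -0.15 to 0.31 in sh720 against control). In sh718 against control it turned for IL6ST (-0.46 to 0.14), CXCL8 (-0.061 to 0.24) and JAK1 (-0.026 to 0.16). In sh720 against control it turned for SERPINH1 (-0.18 to 0.048), IGFBP3 (-0.85 to 0.38), FST (-0.022 to 0.027), ECE1 (-0.053 to 0.11), PLOD1 (-0.093 to 0.16) and SPARC (-0.080 to 0.40). In sh718 against sh720 it turned for NCSTN (-0.35 to 0.041) and TNC (-0.16 to 0.21). Leaving out a library also gained calls, for NCSTN in sh720 against control and for IL6ST in sh718 against sh720. The IL6ST call came without sh718 library 3 (log2 -0.78, edgeR adjusted p 0.00209). The cause of these changes was not tested. With the library number as a replicate block, 1977, 680 and 2425 genes were called, both JAG1 calls were kept, and CCN2 lost its call in sh718 against sh720 (edgeR adjusted p 0.0501). A stricter minimum of 60 counts left some genes, PTHLH among them, with no value. Depth limits the 8 genes under the count minimum, for which the counting intervals span several-fold.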

Other observations

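NOTCH1 and CXCR4 were chosen after their values were seen and lie under the count minimum, so they carry no test. NOTCH1, a receptor for JAG1, had 7, 7 and 9 counts in the sh718 libraries, 5, 5 and 6 in the sh720 libraries and 3, 3 and 3 in the control libraries. Its ratio of scaled summed counts was 2.62 in sh718 over control (exact 95% interval 1.17 to 6.44), 1.71 in sh720 over control (0.712 to 4.39) and 1.53 in sh718 over sh720 (0.775 to 3.1). CXCR4, the chemokine receptor known for homing of tumour cells to bone marrow, had 5, 8 and 12 counts in sh718, 1, 6 and 5 in sh720 and 5, 3 and 4 in control. Its ratio was 2.14 in sh718 over control (1.03 to 4.67) and 0.963 in sh720 over control (0.396 to 2.34), and 2.22 in sh718 over sh720 (1.07 to 4.85), where the libraries overlapped.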
